A study of Macaca mulatta with 2 samples.

Results

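T cells of rhesus blood that carry the CD4 tag were split by their CD8 tag, and the mRNA of the cells with much CD8 on the surface was compared with that of the cells with little. A tag is an antibody joined to a DNA barcode, here against CD4 or CD8α, and its unique molecular identifiers (UMIs, 1 per captured molecule) stand for protein on the cell surface. The cells were chosen by measured values of these same libraries, so the values used for the choice, the tag levels among them, are given as a description. The rule took cells with 200 to 4000 detected genes and at most 20% mitochondrial UMIs, with at least 1 UMI of *CD3E* (a chain of the T cell receptor complex), no UMI of the B cell genes *MS4A1* and *CD79B*, and at least 192 CD4 tag UMIs. Of 7923 deposited barcodes, 7601 passed the limits on genes and mitochondrial UMIs, 7142 of those were T cells and 6711 were CD4-tag+ T cells. CD8-tag high cells had more than 330 CD8 tag UMIs and numbered 3479, which is 51.8% of the CD4-tag+ T cells (95% Clopper-Pearson interval, 50.6 to 53.0%), and the other 3232 were CD8-tag low. Each threshold lies at the 90th percentile of its tag in 86 B gene cells, which were cells holding at least 3 UMIs of genes typical of B cells but no UMI from any CD3 gene.

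The cells were circulating CD4+CD8+ double positive (DP) T cells of 1 untreated rhesus monkey aged 6 years. They were taken from blood by magnetic beads, first for CD4 and then for CD8, and a gene expression library and a tag library were made from the same cells by the 10x 5′ method. There is 1 animal, so there is no replicate and no test, and the intervals below cover counting error only. Because the beads had already selected for CD8, CD8-tag low means low among cells of that sort. Whether CD4 single positive blood cells are among them was not tested.

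CD8 is built from α and β chains, encoded by *CD8A* and *CD8B*. The CD8αβ heterodimer is the coreceptor of conventional CD8+ T cells and binds MHC class I, whereas the CD8αα homodimer is found on innate-like and some activated T cells. CD4 is the coreceptor for MHC class II, and the choice between CD4 and CD8 in the thymus is controlled by transcription factors such as RUNX3 and ZBTB7B (ThPOK). Granzyme B, encoded by *GZMB*, is a protease of cytotoxic granules. Because DP T cells differ in it, the comparison was repeated in 2498 GZMB-rich cells (at least 3 UMIs; 1352 CD8-tag high and 1146 low) and in 3765 GZMB-zero cells (1928 high and 1837 low). The GZMB-zero cells were a mixture. Among them 859 had the naive T cell genes *CCR7* and *LEF1* without *SOX4*, 129 had *FOXP3* and 153 had both *EOMES* and *GZMK*. A further 448 cells with 1 or 2 *GZMB* UMIs were in neither group.

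The genes of both CD8 chains lie close together on chromosome 13 of Mmul_10, *CD8B* at 19024595-19067848 and *CD8A* at 19092978-19100027, both on the plus strand and both protein coding. The windows from 250 bases before to 50 bases after the annotated start of both genes are shown because the transcripts of both CD8 chains are compared across the tag groups. Capitals mark CAGCTG, an E-box that reads the same on both strands and was chosen after the windows had been seen.
CD8A, chr13:19092728-19093027: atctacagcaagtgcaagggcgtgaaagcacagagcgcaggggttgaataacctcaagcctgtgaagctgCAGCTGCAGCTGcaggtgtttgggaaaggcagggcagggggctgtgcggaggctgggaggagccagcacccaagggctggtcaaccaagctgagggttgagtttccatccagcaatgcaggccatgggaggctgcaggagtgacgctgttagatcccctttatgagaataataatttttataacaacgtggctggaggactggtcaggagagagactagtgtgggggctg
CD8B, chr13:19024345-19024644: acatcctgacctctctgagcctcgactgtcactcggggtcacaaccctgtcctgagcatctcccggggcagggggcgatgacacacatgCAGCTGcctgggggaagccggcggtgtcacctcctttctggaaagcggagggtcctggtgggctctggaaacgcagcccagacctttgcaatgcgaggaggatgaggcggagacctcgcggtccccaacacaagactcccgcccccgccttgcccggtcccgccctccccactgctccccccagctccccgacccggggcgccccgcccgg
The *CD8A* window held 2 adjoining E-boxes that begin 180 and 174 bases before the start, and the *CD8B* window held 1 at 161 bases before the start. CAGCTG was found in 15.0% of 21081 such windows of annotated protein-coding genes. The RUNX core TGTGGT, searched on both strands, was found in 13.1% of all windows and in neither of these, which says only that these letters are not in these windows. GC content was 55.7% for *CD8A* and 68.7% for *CD8B*. Sequences and positions are from the RefSeq annotation of Mmul_10.

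CD8 tag levels ran without a gap from low to high. Among the CD4-tag+ T cells the CD8 tag ranged from 41 to 32200 UMIs with a median of 343 and an interquartile range of 195 to 564. The tag chose the groups, so their interquartile ranges of 431 to 772.5 UMIs in high and 134 to 256 UMIs in low cells only describe them. In B gene cells the median was 139.5 UMIs, and in the 1343 CD4-tag+ T cells of the lowest quintile by CD8 tag it was 123 UMIs. The CD4 tag, used only for its threshold, had a median of 434 UMIs in CD8-tag high and 364 UMIs in CD8-tag low cells. The gene UMIs per cell differed in the same direction, with medians of 4018 and 3455.5. Over the 6711 cells, Spearman's rho was 0.31 between the CD8 and CD4 tags, 0.31 between the CD8 tag and gene UMIs, and 0.49 between the CD4 tag and gene UMIs. These measures share the cell and its capture, and the part of cell depth in the comparisons was not tested. The mitochondrial share was alike, with medians of 3.96% and 3.94%.

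**Figure D1:**
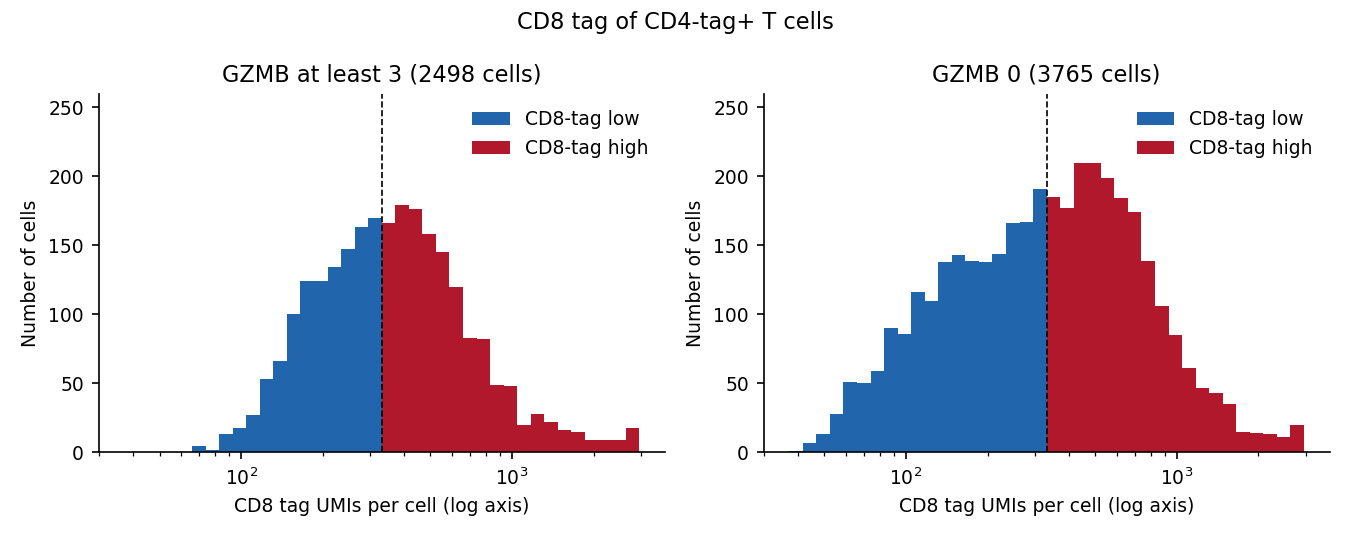
Number of cells (vertical axis) by CD8 tag UMIs per cell (horizontal log axis) in GZMB-rich (left) and GZMB-zero (right) CD4-tag+ T cells. Bars are blue up to 330 UMIs and red above, the dashed line is the threshold and the last bar also holds all cells beyond the axis. In neither panel is there a gap at the threshold, and 54.1% of GZMB-rich and 51.2% of GZMB-zero cells are above it.

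*CD8A* mRNA was higher in CD8-tag high cells, whereas *CD4* mRNA was at the same level in both. The CD8-tag high cells held 3962 *CD8A* UMIs and the CD8-tag low cells 686. Scaled to the total gene UMIs of each group as CPM, that is 251.6 and 58.1. The log2 ratio was 2.11 (95% interval, 2.0 to 2.23). *CD8B* was scarce in both groups, with 217 UMIs (13.8 CPM) in high and 46 UMIs (3.90 CPM) in low cells and a log2 ratio of 1.82 (1.36 to 2.31). *CD4* stood at 180.1 CPM (2835 UMIs) in CD8-tag high and 179.9 CPM (2124 UMIs) in CD8-tag low cells, a log2 ratio of 0.00 (−0.08 to 0.08).

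Most cells with *CD8A* UMIs had none of *CD8B*. In CD8-tag high cells 54.3% had *CD8A* without *CD8B*, 3.36% had both, 1.09% had *CD8B* alone and 41.2% had neither. In CD8-tag low cells 17.4% had *CD8A* without *CD8B*, 0.186% had both, 1.18% had *CD8B* alone and 81.2% had neither. UMIs of both *CD4* and *CD8A* were present in 31.8% of CD8-tag high and 8.91% of CD8-tag low cells. After each cell had been thinned to 2000 UMIs, a *CD8A* UMI was found in 35.9% of CD8-tag high, 10.7% of CD8-tag low and 5.06% of B gene cells, which should lack it. The thinned shares for *CD4* were 29.8% and 30.2%, against 1.27% of B gene cells. A cell without a UMI of a gene may still express it at this depth, and the unthinned median depths were 4018, 3455.5 and 4137.5 UMIs.

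The increase of *CD8A* with the tag did not begin at the threshold. The 547 cells with 281 to 330 CD8 tag UMIs, just below it, held 105.1 CPM of *CD8A*, and the 455 cells with 331 to 380 UMIs, just above it, held 125.1 CPM, with intervals of 91.7 to 120.0 and 108.8 to 143.1. In quintiles of the CD4-tag+ T cells by CD8 tag, *CD8A* stood at 22.6, 72.7, 128, 216 and 324 CPM from the lowest to the highest. *CD8B* stood at 4.39, 3.25, 4.70, 7.43 and 22.3 CPM, so that its level was raised mainly in the quintile with the most CD8 tag. *CD4* ranged only from 163.8 to 190.8 CPM over the same quintiles. These ends were the lowest quintile (152.5 to 175.6) and the next (178.8 to 203.4), whose intervals do not overlap.

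In GZMB-rich cells *CD8A* stood at 269.2 CPM in CD8-tag high and 87.5 CPM in CD8-tag low cells, a log2 ratio of 1.62 (1.45 to 1.79). In GZMB-zero cells it stood at 243.4 and 43.6 CPM, a log2 ratio of 2.48 (2.31 to 2.66). The CD8-tag low cells thus held more *CD8A* when GZMB-rich than when GZMB-zero, while the CD8-tag high cells of both kinds were closer. Both kinds were not matched on the tag. In CD8-tag low cells its median was 216 UMIs when GZMB-rich and 170 UMIs when GZMB-zero, and in CD8-tag high cells 522 and 578.5 UMIs. The part of the tag level in these *CD8A* contrasts was not tested. *CD8B* in GZMB-rich cells was nearly confined to CD8-tag high cells, with 81 UMIs in 49 of them and 2 UMIs in CD8-tag low cells. Its quintiles held 1, 0, 2, 10 and 70 UMIs. The 51 GZMB-rich cells with *CD8B* had a median of 7066 gene UMIs against 3333.5 in all GZMB-rich cells. With GZMB-rich cells thinned to 2000 UMIs, *CD8B* stood at 11.8 CPM in CD8-tag high and 0.455 CPM in CD8-tag low cells. Without the 5% of cells with most UMIs it stood at 8.89 and 0.529 CPM, against 14.0 and 0.515 CPM in all GZMB-rich cells. How much of this *CD8B* difference goes with depth was not tested. In GZMB-zero cells *CD8B* had 128 and 40 UMIs (14.1 and 5.64 CPM; log2 ratio 1.32, 0.80 to 1.87). *CD4* had a log2 ratio of −0.09 (−0.22 to 0.04) in GZMB-rich and 0.06 (−0.06 to 0.17) in GZMB-zero cells.

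**Figure D2:**
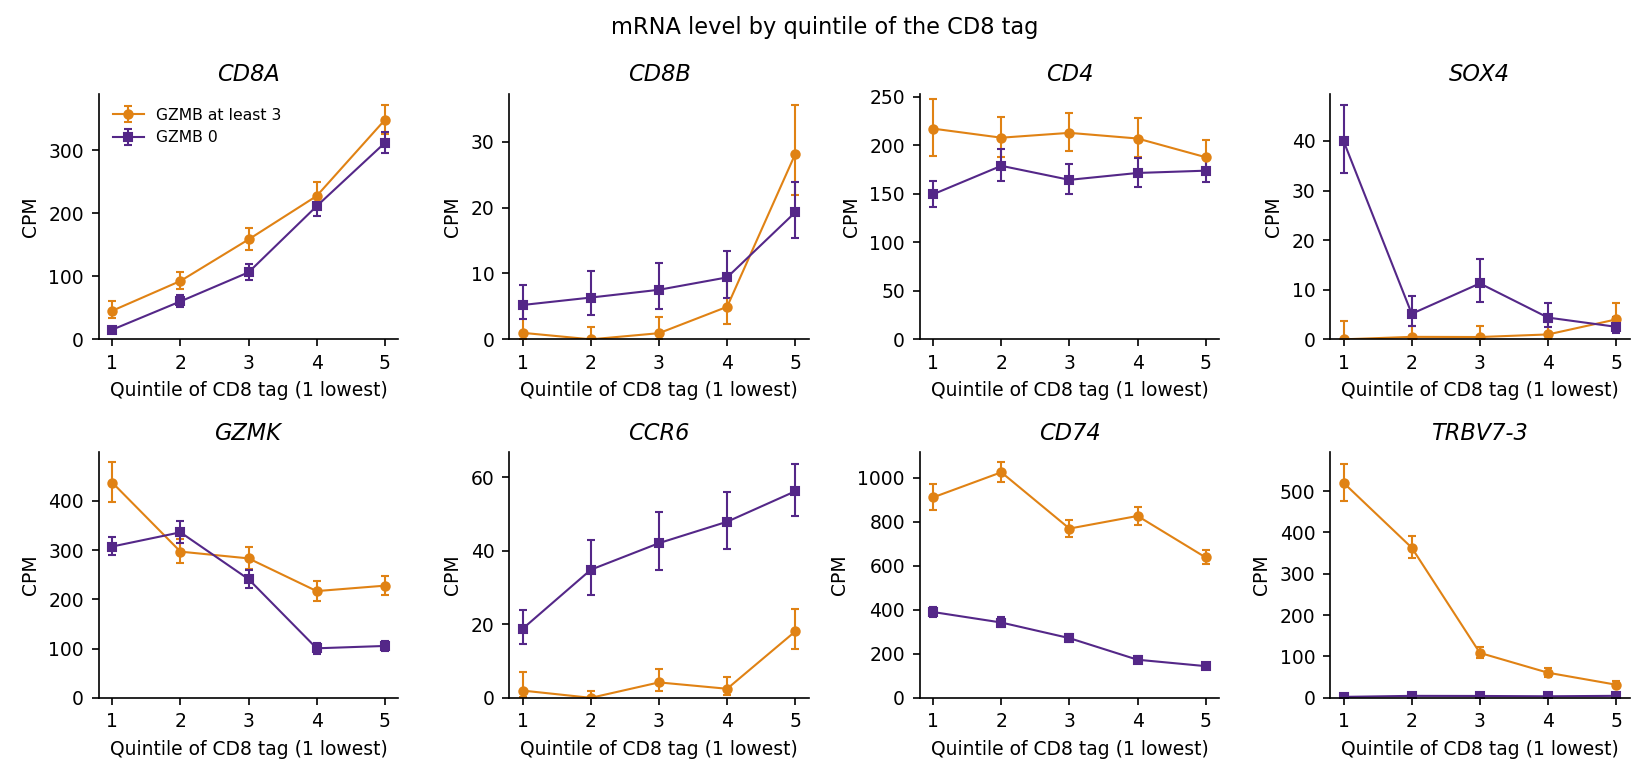
Levels of 8 genes in CPM (vertical axes) by quintile of the CD8 tag of all CD4-tag+ T cells, from lowest to highest (horizontal axes), in GZMB-rich (orange circles) and GZMB-zero cells (purple squares). Bars are exact 95% Poisson intervals. *CD8A* is higher in each successive quintile in both kinds of cell, and *CD8B* stands out in the highest quintile. *CD4* varies little, with its lowest level, 149.4 CPM, in the lowest quintile of GZMB-zero cells. *SOX4* in GZMB-zero cells and *TRBV7-3* in GZMB-rich cells are highest in the lowest quintile.

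Across all genes few others separated the groups. A gene was compared where both groups together held at least 50 UMIs, and was counted as past the fold where the ratio of CPM + 10 between the groups was at least 1.5. Of 9824 genes compared, 10 were higher in CD8-tag high cells (0.102%) and 8 were lower (0.0814%), and the median log2 ratio over all of them was −0.01. Beside *CD8A* and *CD8B*, the higher genes were the receptor segments *TRBV29-1* and *TRBV11-1*, the chemokine receptor *CCR6*, the cytokine signalling inhibitor *SOCS2*, the oxygen sensor *EGLN3*, the histone genes *H3C12* and *H3C6*, and ENSMMUG00000059070, which has no symbol. The lower genes were the segments *TRBV7-3*, *TRBV10-1* and *TRBV27*, the granzyme *GZMK*, *SOX4*, *FOXP3*, the histone gene *H3C13* and ENSMMUG00000062974. The 3 histone genes belong to a family of near-identical copies, are uncertain, and rested on few cells. For example, 262 of the 308 *H3C13* UMIs in CD8-tag low cells came from 1 cell, and without the 5% of cells with most UMIs the log2 ratio of CPM + 10 of *H3C13* was −0.02.

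Lists of genes with other roles gave few calls over all cells. In the list of coreceptor lineage factors 14 members were compared and 0 were past the fold, with a median log2 ratio of CPM + 10 of 0.01. In GZMB-rich cells 3 of its 13 members compared were higher, beside 0.588% higher over all genes compared in these cells. They were *SATB1*, *LEF1* and *TCF7*, up to a log2 ratio of CPM + 10 of 1.53. All 3 are also members of the naive and central memory list, so they are not a result separate from that list. The *LEF1* UMIs came from few and deep cells, as described below for *CCR7* and *LEF1*. In GZMB-zero cells 0 of 13 were past the fold. *GATA3*, which acts upstream of *ZBTB7B*, stood at 74.4 CPM in CD8-tag high and 71.2 CPM in low cells. In all cells 0 of 23 members of the T cell receptor signalling list, 0 of 79 cytosolic ribosomal protein genes, 0 of 66 oxidative phosphorylation genes, 0 of 20 interferon-stimulated genes, 0 of 20 immediate early genes, 0 of 15 glycolysis genes and 0 of 15 cell cycle genes were past the fold. Their medians ranged from −0.05 for T cell receptor signalling to 0.05 for immediate early genes. Of granule proteins, 1 of 10 was lower (*GZMK*), and of the S100, annexin and memory list, the integrin list and the interleukin and other cytokine receptors none of 16, 19 and 22 were past the fold. With the shares of 0.102% and 0.0814% over all genes, counts of 0 in lists of this size say nothing particular about the lists.

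Markers of other cells were summed over each group. The level of 8 B cell markers was 17.0 CPM in both groups, but the rule took no cell with a UMI of *MS4A1* or *CD79B*, so these members are at 0 and the sum is held low by the choice of cells. The summed level of 8 monocyte markers was 4.13 CPM in high and 5.08 CPM in low cells, that of 6 platelet markers 1.33 and 0.932 CPM, and that of 3 plasmacytoid dendritic cell markers 0.254 and 0.508 CPM. Red blood cell markers summed to 41.7 and 42.3 CPM, and 5 NK cell markers, which cytotoxic T cells can also express, to 166.7 and 161.6 CPM. In GZMB-rich cells these NK cell markers summed to 283.5 and 291.9 CPM.

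Among the GZMB-rich cells, 48 genes of 8166 compared were higher in CD8-tag high cells (0.588%) and 13 were lower (0.159%). The 48 became 72 at a CD8 tag threshold of 500, 18 to 27 under 7 other settings such as the tag divided by gene UMIs, and 192 and 10 with pseudocounts of 1 and 50 CPM. Of the 48 higher genes, 5 were named α or β receptor segments, 8 were members of the naive and central memory list and 6 had no symbol. Most of the 48 were thus in none of these groups. Of the 13 lower genes, 5 were named α or β segments. The median log2 ratio of CPM + 10 over all genes compared was −0.02.

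The segments *TRBV7-3*, *TRBV10-1* and *TRBV27*, variable parts of the T cell receptor β chain, were lower in CD8-tag high GZMB-rich cells. *TRBV7-3* had 307 UMIs (53.0 CPM) in CD8-tag high and 1384 UMIs (356.3 CPM) in low cells, a log2 ratio of −2.75 (−2.93 to −2.57). In quintiles of the tag it stood at 520, 363, 109, 60.7 and 31.7 CPM from the lowest to the highest. *TRBV10-1* stood at 17.4 and 92.9 CPM and *TRBV27* at 117.2 and 259.5 CPM. ENSMMUG00000062974, without a symbol, stood at 41.8 and 220.9 CPM. *TRAV5* and *TRAV9-1* were also lower by summed UMIs, but not clearly by share of cells, as given below. Higher in the CD8-tag high cells were *TRBV29-1* (67.6 against 12.1 CPM; log2 ratio 2.48, 2.04 to 2.95), *TRBV11-1* (104.7 against 33.0 CPM), *TRAV10* (42.6 against 11.3 CPM), *TRAV12-2* (115.4 against 72.1 CPM) and *TRBV6-1* (12.3 against 4.38 CPM). Some segments have close relatives, and reads can be split between these, so a single segment can be uncertain as a gene.

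Counted by cell, the share of CD8-tag high among GZMB-rich cells with a UMI of a segment ranged from 18.5% (13.8 to 24.0%) of 243 cells for *TRBV7-3* to 87.3% (78.0 to 93.8%) of 79 cells for *TRBV29-1*. For *TRBV10-1* it was 34.5% of 58 cells and for *TRBV27* 44.0% of 141 cells, and for *TRAV12-2* 72.5% of 305 and *TRAV10* 83.1% of 83 cells. The share over all GZMB-rich cells was 54.1% (52.1 to 56.1%). The intervals for *TRAV5* (46.3% of 54 cells, 32.6 to 60.4%) and *TRAV9-1* (57.4% of 68 cells, 44.8 to 69.3%) include it. The median CD8 tag of the *TRBV7-3* cells was 208 UMIs and that of the *TRBV29-1* cells 545 UMIs. Among GZMB-zero cells the shares were closer together, from 46.5% of 127 cells for *TRAV10* to 70.0% (55.4 to 82.1%) of 50 cells for *TRAV3*. *TRBV29-1* (57.4% of 54 cells), *TRBV10-1* (58.9% of 95 cells) and *TRBV27* (51.7% of 209 cells) all included the 51.2% of all GZMB-zero cells in their intervals. Cells that share a segment may stem from 1 clone, and such cells are not replicates of one another.

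**Figure D3:**
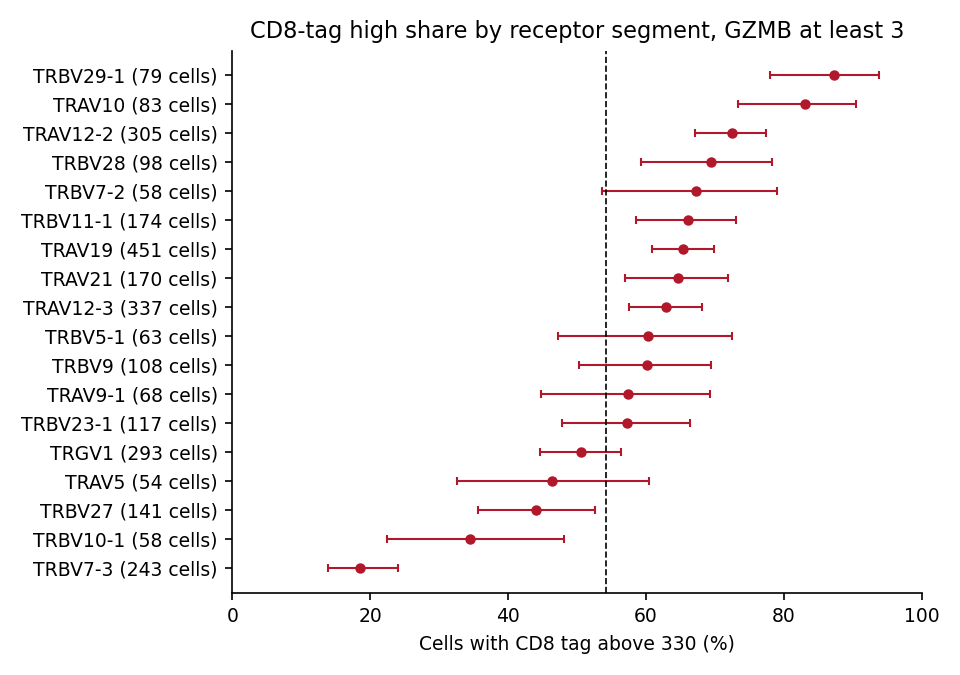
Share of CD8-tag high cells in percent (horizontal axis) among GZMB-rich cells with a UMI of each receptor segment that at least 50 of them hold, with the number of cells in parentheses. Bars are 95% Clopper-Pearson intervals and the dashed line is the 54.1% of all GZMB-rich cells. *TRBV7-3* at 18.5% and *TRBV29-1* at 87.3% stand at the ends.

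Of 15 members of the naive and central memory list compared in GZMB-rich cells, 8 were higher in CD8-tag high cells, 0 lower and the others not past the fold, with a median log2 ratio of CPM + 10 of 0.68. Over all genes 0.588% were higher and 0.159% lower. *CCR7*, a lymph node homing receptor, stood at 39.3 against 8.50 CPM. *LEF1* and *TCF7*, transcription factors of naive T cells, stood at 38.8 against 6.95 CPM and 35.2 against 14.9 CPM, and *CD7* at 100.9 against 27.5 CPM. *PECAM1* (CD31), *SATB1* and *ACTN1* were also higher. Outside this list, the cytokine gene *LTB* (368.4 against 184.8 CPM), *IL6R* (13.1 against 3.09 CPM), *TNFRSF4* (OX40; 8.28 against 1.29 CPM) and *ZBTB16* (PLZF, the factor of innate-like T cells; 9.32 against 1.03 CPM) were higher. *IL6R*, *TNFRSF4* and *ZBTB16* rested on few UMIs. Their ratios kept their direction after thinning and in the depth range given next, but how much of them goes with depth was not tested. Among GZMB-rich cells of 2500 to 4500 gene UMIs *ACTN1* and *LTB* turned direction, with log2 ratios of CPM + 10 of −0.09 and −0.21.

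The *CCR7* and *LEF1* UMIs came from few and deep cells, and the cells of the other naive genes were not counted in this way. The 79 GZMB-rich cells with at least 3 UMIs of *CCR7* and *LEF1* together had a median of 7531 gene UMIs, and 88.6% of them were CD8-tag high. The 138 with 1 or 2 such UMIs had a median of 6657.5 gene UMIs, and 81.9% were CD8-tag high. Choosing cells by UMIs of a gene also favours deep cells. The 2281 GZMB-rich cells without a UMI of these genes had a median of 3273 gene UMIs and 51.2% were CD8-tag high. The *GZMB* medians of these 79 and 2281 cells were 11 and 12 UMIs. Scaled to gene UMIs, *GZMB* was lower in the 79 cells, at 1594.7 against 3741 CPM. Among GZMB-rich cells of 2500 to 4500 gene UMIs the log2 ratios of CPM + 10 were 0.31 for *LEF1*, 0.26 for *CCR7* and 0.16 for *CD7*, none of which is past the fold, against −3.11 for *TRBV7-3* and 1.93 for *TRBV29-1*. With all GZMB-rich cells thinned to 2000 UMIs, *LEF1* was at 1.23, *CCR7* at 1.16 and *CD7* at 1.21. No doublet call was made, and the part of droplets with more than 1 cell was not tested.

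Of 9 granule proteins compared in GZMB-rich cells 0 were past the fold, with a median log2 ratio of CPM + 10 of −0.16 and a range from −0.46 to 0.19, beside 0.588% higher and 0.159% lower over all genes, so that a count of 0 of 9 is not particular to them. Of the NK-type receptors and adaptors 1 of 11 was lower, *KLRD1* (CD94, the partner of NKG2 receptors), at 143.9 CPM in CD8-tag high and 241.0 CPM in low cells (log2 ratio −0.74, −0.88 to −0.61). GZMB-rich cells with a UMI of *CX3CR1*, a chemokine receptor of cytotoxic effector cells, were CD8-tag high in 53.6% of 1068 cells. Those without it were at 54.5% of 1430 cells, both near the 54.1% of all GZMB-rich cells.

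In GZMB-zero cells 11 of 8954 genes compared were higher in CD8-tag high cells (0.123%) and 18 were lower (0.201%), with a median log2 ratio of CPM + 10 of 0.00. *CCR6* and *SOCS2* were among the higher, and *SOX4*, *FOXP3* and *GZMK* among the lower.

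*CCR6*, the chemokine receptor of Th17 cells, had 470 UMIs (51.7 CPM) in CD8-tag high and 193 UMIs (27.2 CPM) in low cells, a log2 ratio of 0.93 (0.68 to 1.17). Of the Th17 list 2 of 6 members compared were higher, *CCR6* among them, and 0 were lower, beside 0.123% higher and 0.201% lower over all genes. *SOCS2* stood at 40.8 against 19.0 CPM, *CTSL* (the protease cathepsin L) at 49.7 against 27.5 CPM and *EGLN3* at 46.2 against 25.7 CPM. In quintiles of the tag *CCR6* ran from 18.8 through 34.9, 42.1 and 47.9 to 56.2 CPM. All 7 members compared of the list of CCR9 helper and gut homing genes had a log2 ratio above 0 but only *SOCS2* was past the fold, and the gut homing receptor *CCR9* itself stood at 50.8 against 39.2 CPM.

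*SOX4*, a transcription factor high in T cells newly released from the thymus, had 40 UMIs (4.40 CPM) in CD8-tag high and 166 UMIs (23.4 CPM) in low GZMB-zero cells, a log2 ratio of −2.41 (−2.95 to −1.91). Of its UMIs in quintiles of the tag, 138 lay in the lowest (40.0 CPM) and 11 in the highest (2.52 CPM). *PLAC8* stood at 74.3 against 139.2 CPM. *FOXP3*, the factor of regulatory T cells, had 60 and 144 UMIs (6.60 and 20.3 CPM; log2 ratio −1.62, −2.08 to −1.18), the only 1 of 7 members compared of the regulatory T cell list to be past the fold downward, and 0 were past it upward. Of these 7 members 4 had a log2 ratio of CPM + 10 above 0, with a median of 0.08 and a highest value of 0.54, and the list summed to 148.4 CPM in CD8-tag high and 132.5 CPM in low cells. Of 18 members of the naive and central memory list 3 were lower and 0 higher, beside 0.201% lower and 0.123% higher over all genes.

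Of 8 granule proteins compared in GZMB-zero cells 4 were lower in CD8-tag high cells and 0 higher, beside 0.201% lower and 0.123% higher over all genes. They were *GZMK* (126.7 against 307.1 CPM; log2 ratio −1.28, −1.38 to −1.17), *GZMM* (37.1 against 64.6 CPM), *NKG7* (160.8 against 264.2 CPM) and *CST7* (105.4 against 171.3 CPM). In the list of Eomes Tr1 genes 3 of 6 members compared were lower and 0 higher. These were *GZMK*, *NKG7* and *CST7* again, so the 2 lists are not separate results. Of 12 members compared of the list of MHC and antigen presentation genes, 3 were lower and 0 higher, beside the same shares over all genes. The median log2 ratio of CPM + 10 of the 12 was −0.08, and the 3 lower genes were of MHC class II presentation. *CD74*, the invariant chain, stood at 178.2 against 351.6 CPM (log2 ratio −0.98, −1.07 to −0.89), *MAMU-DRB1* at 54.7 against 121.7 CPM and *MAMU-DRA* at 10.0 against 22.0 CPM. In GZMB-rich cells 0 of 12 members of this list were past the fold, beside 0.588% higher and 0.159% lower over all genes. Their median log2 ratio of CPM + 10 was −0.14, and *CD74* was also lower there, at 714.0 against 967.7 CPM. Some MAMU genes have close copies, so single members can be uncertain. *CD74* and the DR genes are also at high levels in B cells, where all 79 thinned B gene cells had a *CD74* UMI. B cell markers in the GZMB-zero cells, with *MS4A1* and *CD79B* at 0 by the rule, summed to 20.5 CPM in CD8-tag high and 22.4 CPM in low cells. In GZMB-rich cells these markers summed to 10.9 and 8.50 CPM. The part of B cells in the result was not tested.

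**Figure D4:**
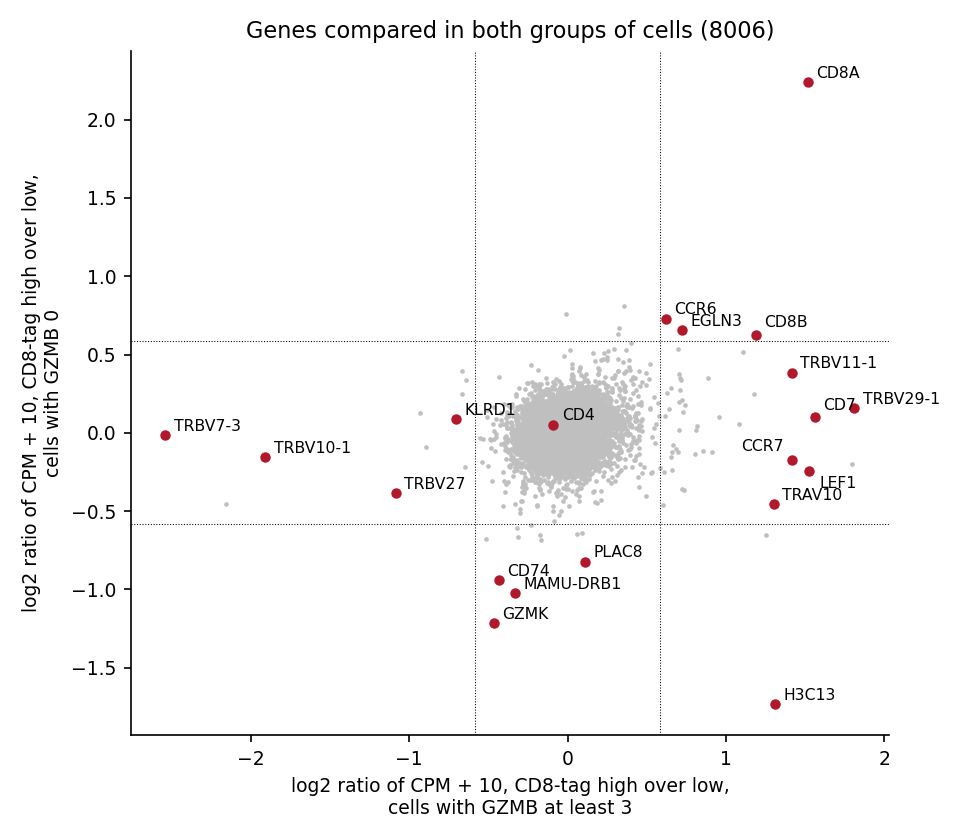
Log2 ratio of CPM + 10, CD8-tag high over low, in GZMB-rich cells (horizontal axis) and GZMB-zero cells (vertical axis) for the 8006 genes compared in both. Each point is a gene, dotted lines mark a ratio of 1.5 in either direction and named genes are red. *CD8A*, *CD8B*, *CCR6* and *EGLN3* are past the lines the same way on both axes, and most other named genes are far out on 1 axis only.

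Over both kinds of cell, 8006 genes were compared in each and 4 were past the fold in the same direction, *CD8A*, *CD8B*, *CCR6* and *EGLN3*, all higher. In GZMB-rich cells *CCR6* and *EGLN3* rested on 52 against 9 and 55 against 7 UMIs, and neither was higher among the cells of 2500 to 4500 gene UMIs (log2 ratios of CPM + 10 of −0.05 and −0.14). *H3C13* was past the fold upward in GZMB-rich and downward in GZMB-zero cells.

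The share of CD8-tag high cells differed with the marker mRNA of the cells. It was 28.3% (21.3 to 36.2%) of 152 cells with a *SOX4* UMI, 25.2% of the 115 of them that also had *CCR7*, and 34.9% (27.2 to 43.3%) of 146 cells with *FOXP3*. Cells with both *EOMES* and *GZMK*, genes of Tr1-type and memory cells, were at 43.8% of 258 cells. Among them the 78 GZMB-rich cells were at 56.4% (44.7 to 67.6%) and the 153 GZMB-zero cells at 37.9% (30.2 to 46.1%). Cells with *CCR7* and *LEF1* but without *SOX4* were at 56.4% (53.2 to 59.6%) of 964 cells, which do not overlap the *SOX4* cells in their intervals. Cells with *CXCR3*, a Th1 receptor, were at 52.8% and cells with the cycling marker *MKI67* at 52.8%, both near the 51.8% of all CD4-tag+ T cells. The shares were 65.4% of 451 cells with *CCR9*, 67.9% of 240 cells with *CXCR5*, the follicular homing receptor, and 71.0% (66.9 to 74.9%) of 517 cells with *CCR6*. For *ZBTB16* without *TRAV10* it was 66.2% of 130 cells. It was 77.0% of 2453 cells with *CD8A* and no *CD8B* and 77.9% of 199 cells with *CD8B*.

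Cells of several of these markers were deeper than average, but not those of all. Cells with both *EOMES* and *GZMK* had a median of 3593.5 gene UMIs, and GZMB-rich cells with *CX3CR1* 3480. The median gene UMIs were 3700 for *SOX4*, 4508.5 for *CCR7* and *LEF1* without *SOX4*, 4232.5 for *FOXP3*, 4753 for *CCR9*, 4649.5 for *CXCR5* and 4873 for *CCR6* cells, against 3696 in all CD4-tag+ T cells. The *FOXP3* cells were thus deeper than average but less often CD8-tag high, at a median CD8 tag of 175 UMIs. The part of depth in these shares and in the contrast with *SOX4* cells was not tested.

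**Figure D5:**
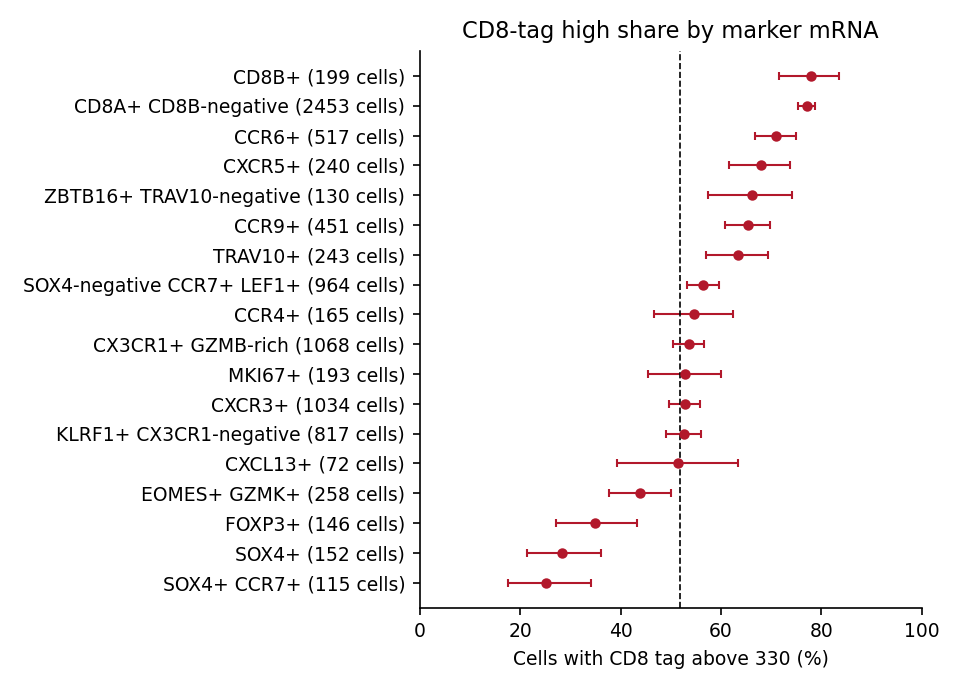
Share of CD8-tag high cells in percent (horizontal axis) among CD4-tag+ T cells with (+) or without (negative) a UMI of the named genes, with the number of cells in parentheses; GZMB-rich means at least 3 *GZMB* UMIs. Bars are 95% Clopper-Pearson intervals and the dashed line is the 51.8% of all these cells. Cells with *SOX4* or *FOXP3* lie left of the line, and cells with *CCR9*, *CXCR5*, *CCR6*, *CD8A* or *CD8B* lie right of it.

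Cells with *TRAV10* had different shares with and without *GZMB*, and this difference was not tested. *TRAV10*+ cells, which carry the α segment used by invariant natural killer T cells, were CD8-tag high in 83.1% (73.3 to 90.5%) of 83 GZMB-rich and 46.5% (37.6 to 55.5%) of 127 GZMB-zero cells. Their median gene UMIs were close, at 3760 and 3890, and their median CD8 tags were 569 and 318 UMIs. They held 3 and 1 *CD8B* UMIs, against 71 and 69 of *CD8A*. Other cells also had a higher share when GZMB-rich than when GZMB-zero. These, chosen after their values were seen and not tested, were cells with *CCR7* and *LEF1* without *SOX4* (89.9% against 53.7%), *CD8B* (96.1% against 72.9%), *TRBV29-1* (87.3% against 57.4%), *TRAV12-2* (72.5% against 50.3%) and *TRAV19* (65.4% against 48.2%). Median gene UMIs were 7517 against 4346 in the *CCR7* and *LEF1* cells and 7066 against 4485 in the *CD8B* cells. For the listed segments the GZMB-rich cells were less deep, and the part of depth was not tested. Some cells went the other way, such as those with *CD8A* and no *CD8B* (72.8% against 80.5%), *TRBV10-1* (34.5% against 58.9%) and *TRBV27* (44.0% against 51.7%). Cells with at least 1 *CD4* UMI were CD8-tag high in 56.4% of GZMB-rich and 55.0% of GZMB-zero cells.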

How the data were processed

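CD4+CD8+ DP T cells of 1 animal gave a gene expression and a tag library. The deposited values are UMI counts, not normalized, of 35432 features and 2 tags in 7923 barcodes. Per the labels, the authors made them with Cell Ranger (3.1.0) and the aligner STAR (2.5.1b) against Mmul_10. For the release of the gene annotation, the sources used here give no name. Symbols were deposited for 23817 features, and a gene name table gave 720 more.

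Cells, groups and thresholds were as given in the report. The members, gene lists, marker groups and thresholds were chosen with earlier results of these data known. UMIs were summed per cell group and scaled to CPM. Levels carry exact 95% Poisson intervals, log2 ratios exact intervals (binomial split of the counts in both groups), and shares Clopper-Pearson intervals. Genes with at least 50 UMIs over both groups were compared, and a ratio of CPM + 10 of at least 1.5 was past the fold. *CD3E*, *MS4A1*, *CD79B* and, within the *GZMB* groups, *GZMB* were left out as genes of the rule. Named genes were the 12 with the largest ratios per direction and comparison, the coreceptor genes, list members past the fold or among the 4 with most UMIs of their list, and the marker group genes. Some of these genes are counted but not reported by name. Thinning to 2000 UMIs used seed 1 and dropped 277 of 6711 cells. No test was made. Depth was 509 to 19490 gene UMIs per cell, 15744683 in CD8-tag high and 11806100 in CD8-tag low cells.

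Alternatives were other tag thresholds, the CD8 tag divided by gene UMIs, thinning, means over cells, other pseudocounts and UMI minimums, the mitochondrial share from named genes only, other *GZMB* groups, and leaving out the 5% of cells with most UMIs (7480 or more, as possible doublets), cells of 5 variable segments, or *SOX4*, *CCR7* or *LEF1* cells. Cells of 2500 to 4500 UMIs were added after seeing the data. Doublets were not otherwise treated. Of 141 named symbols, 117 matched the RefSeq annotation. Computation used Python 3.11.15, numpy 2.4.6, scipy 1.17.1, pandas 2.3.3 and matplotlib 3.10.9, and was tested on simulated data.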

Additional observations from a re-analysis of the deposited data

Results flagged for a closer look

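The histone gene *H3C13* went in opposite directions in GZMB-rich and GZMB-zero cells. Its log2 ratio of CPM + 10, CD8-tag high over low, was 1.31 in GZMB-rich and −1.73 in GZMB-zero cells. The UMIs came from 11 CD8-tag high and 3 low GZMB-rich cells and from 6 high and 6 low GZMB-zero cells, and 1 GZMB-zero cell held 262 of them. With 1 animal the difference between both kinds of cell was not tested.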

How the results depend on the processing

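With 1 animal there is no replicate to leave out. No paired analysis was possible because both libraries come from the same cells of that animal. The *CD8A* ratio kept its direction throughout. Its log2 value of 2.11 in all cells was 2.47 at a CD8 tag threshold of 250, 1.73 at 500, 1.97 with the tag divided by gene UMIs and 1.87 without *SOX4*, *CCR7* or *LEF1* cells. In GZMB-rich cells (1.62) it was 1.81 at 250 and 1.40 at 500, and in GZMB-zero cells (2.48) it was 2.95, 1.98, 2.10 and 2.21 under those 4 settings in the same order. The share of CD8-tag high cells was 55.0% at a CD4 tag threshold of 300, 49.96% without the 5% of cells with most UMIs, 49.3% without *SOX4*, *CCR7* or *LEF1* cells and 46.3% in cells of 2500 to 4500 UMIs.

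Counts of genes past the fold depended most on the pseudocount. At 1 CPM they were 100 higher and 62 lower in all cells, 192 and 79 in GZMB-rich and 126 and 108 in GZMB-zero cells, and at 50 CPM they were 1 and 3, 10 and 6, and 1 and 5. The 48 higher genes of GZMB-rich cells became 72 at a CD8 tag threshold of 500, 20 with the tag divided by gene UMIs, 27 after thinning, 27 by means over cells, 23 at a minimum of 200 UMIs, 20 without the 5% of cells with most UMIs, 18 without *SOX4*, *CCR7* or *LEF1* cells and 21 in cells of 2500 to 4500 UMIs. The 13 lower became 22 at a CD4 tag threshold of 300 and 8 at a minimum of 200 UMIs. The 11 higher genes of GZMB-zero cells became 17 at a CD8 tag threshold of 500, 7 with the tag divided by gene UMIs, 21 after thinning, 30 without *SOX4*, *CCR7* or *LEF1* cells, where the 18 lower became 35, and 25 in cells of 2500 to 4500 UMIs.

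Of named genes, 10 values turned direction. *H3C6* in all cells was −0.026 without the 5% of cells with most UMIs, −0.012 without *SOX4*, *CCR7* or *LEF1* cells and −0.069 in cells of 2500 to 4500 UMIs. In GZMB-rich cells of 2500 to 4500 UMIs *ACTN1* was −0.088, *CCR6* −0.049, *EGLN3* −0.14 and *LTB* −0.21. *H3C13* in GZMB-rich cells was −0.0087 without the 5% of cells with most UMIs, and *TNNI2* 0.81 at a CD8 tag threshold of 250 and 0.47 without *SOX4*, *CCR7* or *LEF1* cells. The cause was not tested. With a minimum of 20 UMIs 11026, 9556 and 10323 genes were compared, and counting error limits those with few UMIs most.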

Other observations

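The T cells at or below the CD4 tag threshold numbered 431 and were compared only near it. Of the 211 T cells up to 50 UMIs below the threshold 37.0% were above 330 CD8 tag UMIs, and of the 517 cells up to 50 UMIs above it 41.6%. Their *CD4* mRNA stood at 181.6 (149.4 to 218.7) and 181.7 (161.6 to 203.6) CPM, and their *CD8A* mRNA at 186.5 (153.8 to 224.0) and 178.6 (158.7 to 200.4) CPM, so no step of either gene was detectable at the CD4 tag threshold.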
